A study of Mus musculus with 15 samples.

Results

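Transcripts of 10 genes of the Bcl2 family were followed across 15 mouse tumors. The 10 genes were taken as a fixed list of well-known family members. No measured value entered the rule for choosing them, but the list was made with earlier results of these data known. They were 3 pro-survival genes (Bcl2, Bcl2l1 and Mcl1), 2 effectors (Bax and Bak1) and 5 BH3-only genes (Bid, Bad, Bcl2l11, Bbc3 and Pmaip1), out of 23329 genes counted. All 10 were among the 14880 genes that reached over 1 CPM (counts scaled to the size of the library) in 3 or more tumors and were tested.

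Proteins of this family decide whether the outer mitochondrial membrane is opened during apoptosis. Bax and Bak1 form the openings through which cytochrome c leaves the mitochondrion. Bcl2, Bcl-xL (from Bcl2l1) and Mcl1 hold them back, and the BH3-only proteins either block the pro-survival proteins or activate the effectors directly. Caspase-2 can cleave Bid, and high Myc activity sensitizes cells to death through this pathway, which is why loss of family members such as Bcl2l11 speeds up Myc lymphoma in mice. Much of the control of the family lies in protein stability, phosphorylation and cleavage, which RNA counts do not show.

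The lymphomas, taken from cervical lymph nodes of C57BL/6 mice, were 4 EμMyc tumors with Casp2 intact and 3 of genotype EμMyc/Casp2-/-. The neuroblastomas, taken from the paraspinal thorax of Sv129/C57BL6 mice, were 4 Th-MYCN tumors with Casp2 intact and 4 of genotype Th-MYCN/Casp2-/-. EμMyc mice carry a c-Myc transgene under an immunoglobulin heavy chain enhancer, which acts in B cells. Th-MYCN mice carry MYCN under the tyrosine hydroxylase promoter, which acts in cells of the sympathetic lineage. Each library came from the tumor of 1 mouse, and single tumors are named as in the labels. The wild type and Casp2-/- tumors were compared because loss of caspase-2 speeds up the lymphoma and delays the neuroblastoma. Lymphoma onset ranged from 13 to 19 weeks with Casp2 and from 8 to 12 weeks without it, and neuroblastoma onset from 10 to 21 and from 15 to 24 weeks. The onsets of the lymphoma genotypes did not overlap, so that onset and genotype cannot be told apart there, and strain, tissue and oncogene cannot be told apart between the tumor types.

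Libraries held 4940464 to 17638029 reads on genes in the strand column used, and EuMycC2ko215 was the smallest. At that depth 3 reads corresponded to 0.173 to 0.585 CPM. Casp2 itself was at 125 to 203 CPM in EμMyc, 51.9 to 76.1 in EμMyc/Casp2-/-, 76.0 to 125 in Th-MYCN and 39.6 to 80.2 in Th-MYCN/Casp2-/- tumors, so that its ranges overlapped between the neuroblastoma genotypes. The counts are summed over the whole gene, so reads from parts of Casp2 outside the deletion would still be counted. The summed CPM of 6 B cell markers was 1800 to 4310 in lymphomas and 5.60 to 21.3 in neuroblastomas, and that of 7 sympathetic markers was 2090 to 3370 in neuroblastomas and 0.945 to 14.3 in lymphomas. EuMycC2ko215 stood apart from the other tumors. Of 10 T cell markers listed 8 were found, and their summed CPM was 1480 in this tumor, 152 and 214 in the other EμMyc/Casp2-/- tumors, 29.6 to 110 in EμMyc and 10.2 to 24.5 in neuroblastomas. None of the 8 was at 0 throughout a group. Genes of high GC content lay 0.83 higher in EuMycC2ko215 on the log2 scale, relative to genes of low GC content, than in the mean of the other lymphomas. Among the neuroblastomas MYCNC2ko180 had a difference of the same kind of 0.61, against -0.18 to 0.15 in the others. Of 7 erythroid markers listed 6 were found, and of these Hba-a1 and Hba-a2 were at 0 in every tumor of both types. The summed CPM of the 6 was 675 in EuMycC2ko245 and 7.23 to 109 in all other tumors. The part of the T cell and erythroid markers in the results was not tested, and results of the 10 members that rest on EuMycC2ko215 are given with and without it.

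Levels were first compared between genes on a scale of CPM per kilobase of the longest annotated transcript. Bax and Mcl1 had the highest levels in both tumor types. Bax stood at 154 ± 90.0 (SD, n = 7) and Mcl1 at 149 ± 25.2 CPM per kilobase in lymphomas, and without EuMycC2ko215 Bax fell below Mcl1, at 120 ± 16.5 against 152 ± 25.9 (n = 6). In neuroblastomas Bax stood at 106 ± 12.8 and Mcl1 at 76.0 ± 15.8 (n = 8). The ranges of the pair overlapped in each tumor type. The lymphomas then had Bak1 (53.8 ± 7.65), Bid (44.9 ± 9.95) and, below a gap, the other 6 members between 3.59 and 14.3 CPM per kilobase. The neuroblastomas had Bcl2l1 (31.2 ± 4.17), Bbc3 (25.6 ± 6.10) and Bad (21.6 ± 3.60) in these places. Bak1 stood at 8.29 ± 1.32 there, and Pmaip1 was lowest at 0.952 ± 0.473. Mcl1 also came before Bax when the summed exons or the coding length were used in place of the longest transcript, while Mcl1 and Bax held the first 2 places and Bak1 and Bid the next 2 in lymphomas under all 3 lengths. Bcl2 was 10th of 10 in lymphomas by the longest transcript, at 3.59 ± 2.73, and its ranges overlapped those of Pmaip1 above it.

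**Figure D1:**
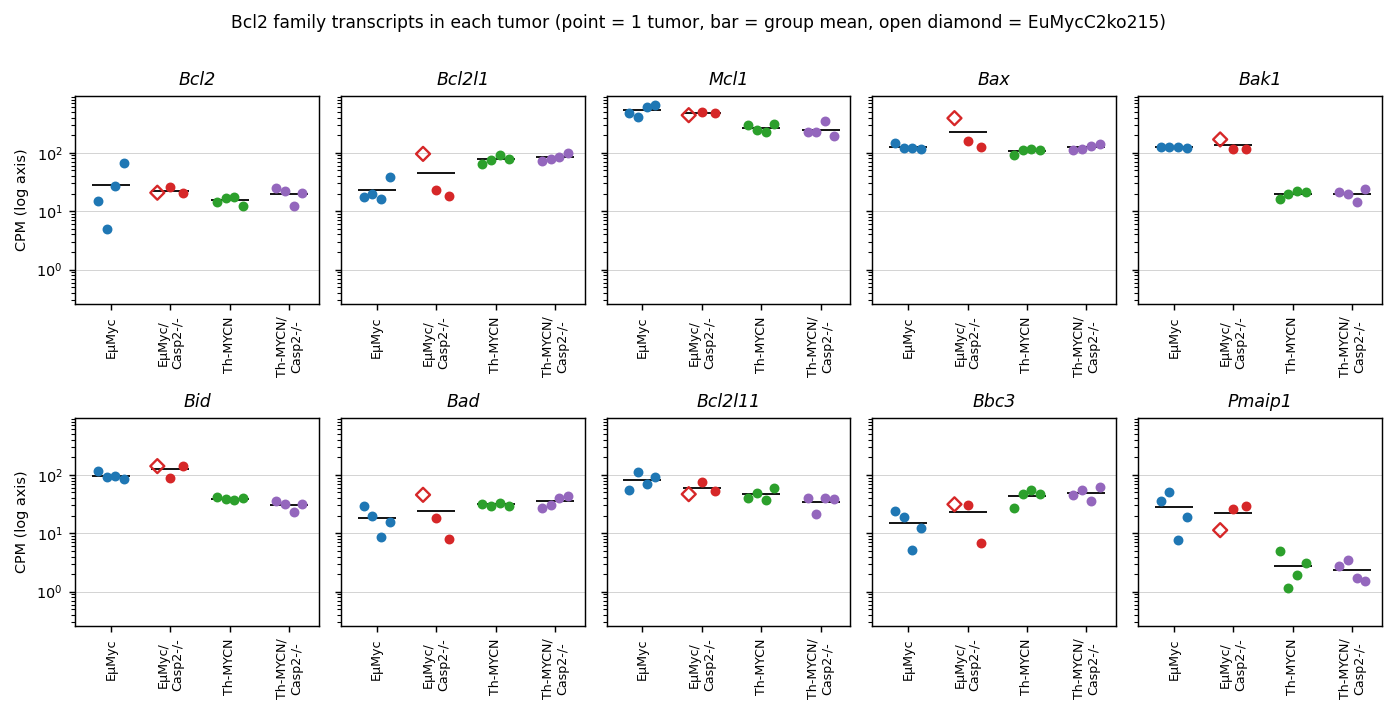
CPM (log axis) of the 10 Bcl2 family genes in each tumor by group, where a point is 1 tumor, a black bar the group mean and the open diamond EuMycC2ko215. Bak1 lay at 114 to 169 CPM in lymphomas and 14.1 to 23.6 in neuroblastomas, while genotypes within a tumor type lay close together for most genes.

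Among the pro-survival genes, Mcl1 and Bcl2l1 went opposite ways between the tumor types. Mcl1, a short-lived protein on which many B cell tumors depend, stood at 483, 404, 601 and 646 CPM in EμMyc tumors EuMyc614, EuMyc743b, EuMyc829 and EuMyc835, and at 304, 250, 223 and 305 CPM in Th-MYCN tumors MYCN175, MYCN235, MYCN332 and MYCN391. Every EμMyc tumor lay above every Th-MYCN tumor. Mcl1 was 1.97-fold higher (95% interval 1.47 to 2.64), with a Benjamini-Hochberg FDR of 0.000585 in edgeR's quasi-likelihood test (QLF). In the Casp2-/- tumors Mcl1 was at 440, 499 and 484 CPM in lymphomas EuMycC2ko215, EuMycC2ko239 and EuMycC2ko245, and at 226, 226, 351 and 193 CPM in neuroblastomas MYCNC2ko118, MYCNC2ko144, MYCNC2ko176 and MYCNC2ko180. The groups again did not overlap, and the difference was 1.91-fold (1.39 to 2.61, QLF FDR 0.00156). In these bulk tumors, fewer cells of a type and less RNA per cell cannot be told apart.

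Bcl2l1, which encodes Bcl-xL, stood at 17.5, 19.5, 16.3 and 38.2 CPM in the EμMyc and at 64.0, 74.1, 91.0 and 79.7 CPM in the Th-MYCN tumors, in the order of tumors above. All Th-MYCN tumors were higher, by 3.38-fold (log2 fold change -1.76 for EμMyc against Th-MYCN, 95% interval -2.64 to -0.87, QLF FDR 0.00225). In the Casp2-/- lymphomas the values were 95.7, 23.0 and 18.4 CPM, and in the Casp2-/- neuroblastomas 72.5 to 97.9 CPM. EuMycC2ko215, with the 95.7 CPM, lay within the neuroblastoma range, and the difference did not pass (log2 fold change -0.88, QLF FDR 0.113). Without EuMycC2ko215 it was -1.94 and passed (QLF FDR 0.000164).

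Bcl2 itself did not pass in either comparison of tumor types. Its EμMyc values were 15.0, 4.96, 26.8 and 67.0 CPM, against 12.3 to 17.5 CPM in Th-MYCN tumors, so that the lymphomas lay both above and below the neuroblastomas. Its coefficient of variation in EμMyc tumors, 95.6%, was the largest of the 10 genes in that group, where Bak1 had 1.98%. The log2 fold change was 0.89 (95% interval -0.20 to 1.99, QLF FDR 0.150), and it turned on single tumors. Without EuMyc743b, the lowest, it was 1.29 and passed (QLF FDR 0.0110), and without EuMyc835, the highest, it was 0.03 (QLF FDR 0.956). With offsets corrected for the GC content and length of genes, a setting added after the data were seen, it was 1.41 and passed (QLF FDR 0.0275). In Casp2-/- tumors the log2 fold change was 0.17 (-1.02 to 1.36, QLF FDR 0.813).

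The summed level of the 3 pro-survival genes per kilobase of longest transcript was made up differently in the 2 tumor types. Mcl1 held 76.2 to 94.6% of it in lymphomas (median 93.4%, n = 7) and 58.0 to 76.8% in neuroblastomas (median 68.8%, n = 8). Bcl2l1 held 3.41 to 22.1% in lymphomas and 21.5 to 39.2% in neuroblastomas, and the highest lymphoma share was that of EuMycC2ko215. In the other 6 lymphomas the Bcl2l1 share was at most 6.98%. Bcl2 held 0.546 to 4.37% in lymphomas and 1.25 to 3.54% in neuroblastomas. By coding length in place of transcript length, the Bcl2 share rose to 1.59 to 11.8% in lymphomas and 3.56 to 9.59% in neuroblastomas. Shares of a sum move together by construction and were not tested. They are shares of these 3 genes only. Bcl2l2, a pro-survival gene outside the 10, was not in the sum. Its mean CPM, not scaled to transcript length, was 86.4 in neuroblastomas, where that of Bcl2l1 was 80.1. In lymphomas the mean CPM was 10.1 for Bcl2l2 and 32.7 for Bcl2l1. The level of Bcl2l2 per kilobase was not computed, so its place beside Bcl2l1 on that scale is not known.

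**Figure D2:**
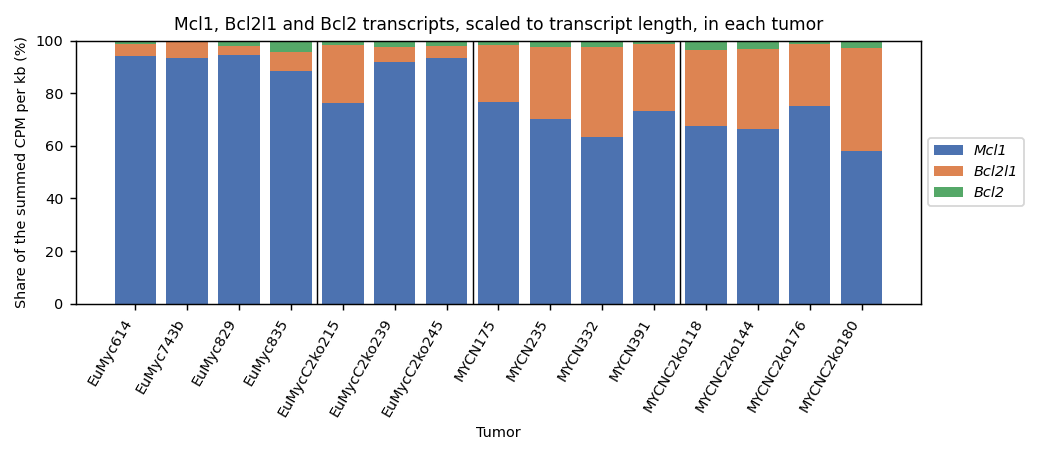
Share in percent of Mcl1, Bcl2l1 and Bcl2 in their summed CPM per kilobase of the longest transcript, 1 stacked bar for each tumor, with vertical lines between the groups. Mcl1 took 58.0 to 76.8% in neuroblastomas and, apart from EuMycC2ko215 at 76.2%, at least 88.6% in lymphomas.

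The effectors behaved differently from each other. Bak1, which resides on the outer mitochondrial membrane, stood at 126, 127, 124 and 122 CPM in EμMyc and at 16.4, 19.8, 22.4 and 20.9 CPM in Th-MYCN tumors, and was 6.27-fold higher in EμMyc (4.81 to 8.17, QLF FDR 1.43e-08). With Casp2 lost it was at 169, 118 and 114 CPM in lymphomas and 21.5, 19.5, 14.1 and 23.6 CPM in neuroblastomas, a difference of 6.78-fold (5.09 to 9.03, QLF FDR 2.02e-08). In neither comparison did any tumor cross over, and under all other settings tried the log2 fold change stayed between 2.57 and 2.91.

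Bax, which moves from the cytosol to the mitochondrion on activation, was at 147, 121, 121 and 116 CPM in EμMyc and 93.0, 112, 114 and 111 CPM in Th-MYCN tumors. The groups lay just apart, but the log2 fold change of 0.23 (-0.32 to 0.78) did not pass (QLF FDR 0.466). With the corrected offsets it was 0.70 and passed (QLF FDR 0.00122). Among Casp2-/- tumors Bax stood at 391, 162 and 127 CPM in lymphomas and at 113, 118, 129 and 141 CPM in neuroblastomas, and the difference of 1.81-fold (1.20 to 2.74) passed (QLF FDR 0.0156). It rested on EuMycC2ko215, without which the log2 fold change of 0.86 became 0.27 (QLF FDR 0.169).

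Bak1 and Bid were higher in lymphomas of both genotypes, while Bax did not pass between wild type tumors before the offsets were corrected. For this reason the promoters of the effectors and of Bid, the BH3-only gene described next, are printed. They are RefSeq sequences of build GRCm38.p6, from 250 bases before to 50 after the annotated start, 5′ to 3′, all on the minus strand, with an E-box (CACGTG, the site bound by Myc and Max) or a GC box (GGGCGG or CCGCCC) in capitals. CACGTG reads the same on both strands, and the 2 spellings of the GC box are its 2 strands.
Bax, chr7:45466849-45467148: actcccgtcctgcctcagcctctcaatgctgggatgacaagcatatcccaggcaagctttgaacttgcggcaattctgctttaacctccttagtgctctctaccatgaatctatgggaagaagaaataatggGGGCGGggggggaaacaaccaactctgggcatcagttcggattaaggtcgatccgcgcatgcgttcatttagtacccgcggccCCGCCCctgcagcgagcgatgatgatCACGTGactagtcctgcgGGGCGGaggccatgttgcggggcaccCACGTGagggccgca
Bak1, chr17:27028578-27028877: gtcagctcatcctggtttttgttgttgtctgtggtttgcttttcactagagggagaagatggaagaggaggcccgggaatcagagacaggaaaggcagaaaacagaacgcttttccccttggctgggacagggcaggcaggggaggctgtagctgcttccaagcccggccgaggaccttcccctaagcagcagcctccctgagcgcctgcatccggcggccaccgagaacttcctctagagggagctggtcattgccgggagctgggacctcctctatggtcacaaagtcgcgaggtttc
Bid, chr6:120916775-120917074: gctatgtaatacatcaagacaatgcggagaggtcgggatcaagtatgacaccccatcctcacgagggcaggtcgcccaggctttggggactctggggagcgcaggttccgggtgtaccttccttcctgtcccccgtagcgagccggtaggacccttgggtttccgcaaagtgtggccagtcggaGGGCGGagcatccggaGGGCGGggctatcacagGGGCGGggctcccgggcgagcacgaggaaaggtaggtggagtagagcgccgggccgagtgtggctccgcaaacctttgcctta
The Bax window held 2 E-boxes and 3 GC boxes, the Bid window 0 and 3, and the Bak1 window 0 and 0. A CCAAT box (CCAAT or ATTGG) was also searched and stood in none of the 3. Over 32851 RefSeq promoter windows of the same length, 7.15% held an E-box, 35.7% a GC box and 37.4% a CCAAT box. In all, 15 windows of 9 members were looked up, and Pmaip1 was left out of this search. The windows of Bax and 1 of 3 of Bbc3 held an E-box, and those of Bcl2, Bcl2l1, Mcl1, Bad and Bcl2l11 held none. These are matches of letters in a window and say nothing of binding.

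Of the BH3-only genes, 3 were higher in lymphomas than in neuroblastomas of both genotypes. Bid, whose product caspases cleave into its active form, stood at 116, 91.8, 94.9 and 85.6 CPM in EμMyc and at 41.0, 38.9, 37.6 and 39.6 CPM in Th-MYCN tumors (2.47-fold, 1.90 to 3.19, QLF FDR 1.49e-05). In Casp2-/- tumors it was at 141, 89.9 and 141 CPM in lymphomas and 35.1, 31.3, 23.4 and 31.5 CPM in neuroblastomas (4.07-fold, 3.08 to 5.39, QLF FDR 3.56e-07). The groups did not overlap in either comparison. Bid overlaps Bcl2l13 on the opposite strand over 628 bases of the annotation used here, but the sum of its counts on both strands was 100% of its count on either strand, so that no reads appeared to be shared.

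Pmaip1, which encodes Noxa, a partner of Mcl1, had the largest fold change of the 10 genes. It was at 35.3, 51.2, 7.72 and 19.1 CPM in EμMyc and at 5.07, 1.16, 1.90 and 3.09 CPM in Th-MYCN tumors. Although it varied widely within EμMyc, all EμMyc tumors lay above all Th-MYCN tumors, by 10.1-fold (4.48 to 22.5, QLF FDR 0.000176). Among Casp2-/- tumors it was at 11.3, 26.5 and 29.2 CPM in lymphomas and 2.74, 3.53, 1.74 and 1.54 CPM in neuroblastomas (9.29-fold, 3.85 to 22.4, QLF FDR 0.000371). Pmaip1 had as few as 16 reads in a neuroblastoma, fewer than any other member in any tumor.

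Bcl2l11, which encodes Bim, stood at 55.3, 110, 70.3 and 90.1 CPM in EμMyc and 39.8, 49.8, 36.9 and 60.4 CPM in Th-MYCN tumors. The groups overlapped, and the difference of 1.74-fold (1.19 to 2.56) passed (QLF FDR 0.0155). In Casp2-/- tumors it was at 46.7, 76.7 and 53.8 CPM in lymphomas and 40.0, 21.7, 39.7 and 38.3 CPM in neuroblastomas, with no overlap (1.69-fold, 1.12 to 2.57, QLF FDR 0.0297). Both calls lay near the threshold. The first, a log2 fold change of 0.80, was 0.70 without MYCN332 (QLF FDR 0.0502), and the second, of 0.76, was 0.58 without EuMycC2ko239 (QLF FDR 0.123) and 0.59 without MYCNC2ko144 (QLF FDR 0.0838).

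Bbc3, which encodes Puma, a target of p53, was lower in lymphomas. It was at 24.2, 18.9, 5.20 and 12.5 CPM in EμMyc and 27.1, 46.1, 54.7 and 47.3 CPM in Th-MYCN tumors, where every neuroblastoma was the higher (2.88-fold, QLF FDR 0.0102). The Casp2-/- values were 31.3, 30.9 and 6.86 CPM in lymphomas and 45.1, 54.7, 35.7 and 61.6 CPM in neuroblastomas. There was no overlap there either, but the log2 fold change of -1.10 (-2.15 to -0.06) did not pass (QLF FDR 0.0734), while DESeq2 gave -1.12 with an FDR of 0.0441. Without EuMycC2ko245 it was -0.67 (QLF FDR 0.239). Bbc3 has the highest GC content of the 10 genes, at 65.2%, and with offsets corrected for GC content and length its log2 fold change between wild type tumors went from -1.53 to -0.83 and no longer passed (QLF FDR 0.0729). The same correction gave -0.42 between Casp2-/- tumors (QLF FDR 0.395).

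Bad, which binds Bcl2 and Bcl-xL when it is dephosphorylated, did not pass. It stood at 29.3, 19.9, 8.66 and 15.6 CPM in EμMyc and 29.8 to 33.6 CPM in Th-MYCN tumors (log2 fold change -0.76, -1.66 to 0.14, QLF FDR 0.134). With Casp2 lost it was at 45.5, 18.6 and 8.08 CPM in lymphomas and 27.2 to 43.0 CPM in neuroblastomas (log2 fold change -0.55, QLF FDR 0.321), and without EuMycC2ko215 at -1.33 it passed (QLF FDR 0.0179). Bad overlaps Gpr137 on the opposite strand over 524 bases. Here the sum of the counts on both strands was 105 to 121% of the count on either strand, so that reads of the overlap entered the strand columns, and its values are uncertain to that extent.

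In all, 5 members were higher and 2 lower in EμMyc than in Th-MYCN tumors, against 27.4% of all tested genes higher and 32.9% lower. In EμMyc/Casp2-/- against Th-MYCN/Casp2-/- tumors 6 members were higher and 0 lower, against 26.8% and 31.4% of all tested genes. The median log2 fold change of the 10 members was 0.85 in the first comparison and 0.81 in the second, and over all genes tested it was -0.04 and -0.05. These values describe the 10 genes listed and not the whole family. Of the other family genes tested, 0 of 3 pro-survival genes were higher and 1 lower in the first comparison. Of 3 effector and BH3-only genes 0 were higher and 2 lower, and of 6 more distant genes 2 and 2. In the second comparison these counts were 2 and 1, 0 and 2, and 1 and 1. Groups lay fully apart for 8 of the 10 members in the wild type and 6 of 10 in the Casp2-/- comparison. The share of all tested genes that lay fully apart was not computed, so these 2 counts have no background to be read against. Without EuMycC2ko215 the Casp2-/- comparison had 7 members passing in place of 6, with Bcl2l1 and Bad gained on the lower side and Bax lost on the higher. In that fit 8709 of all 14880 genes passed, against 8669 with all tumors.

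**Figure D3:**
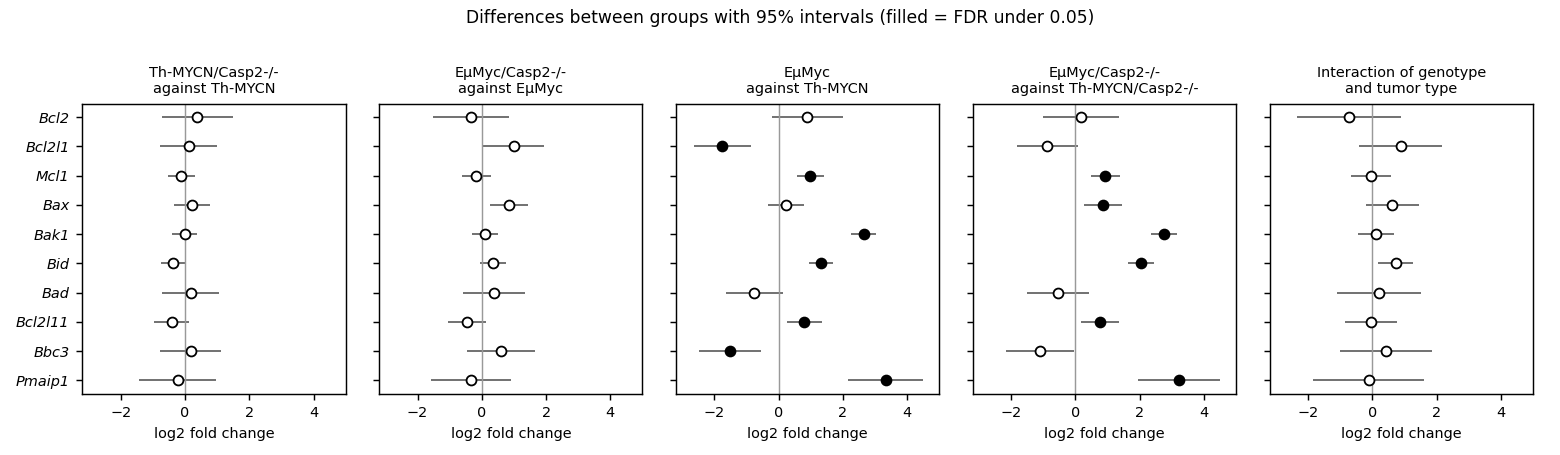
Log2 fold change (points) and 95% interval (lines) of each member in the 5 comparisons, filled where the QLF FDR was under 0.05. Both comparisons of tumor types hold filled points, from -1.76 (Bcl2l1) to 3.33 (Pmaip1) in the first, and the comparisons of genotypes and the interaction hold none.

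Loss of Casp2 was not accompanied by a change past the threshold in any of the 10 genes in neuroblastomas. By QLF 0 of 10 members passed between the neuroblastoma genotypes (Th-MYCN/Casp2-/- against Th-MYCN), where 0.0336% of all tested genes did. By edgeR's likelihood ratio test and DESeq2 0 members passed, where 133 and 141 of all 14880 genes did. At a raw p under 0.05, 0 of 10 members and 1008 of all 14880 genes were found. The absolute log2 fold changes were 0.02 to 0.42. The share of all tested genes whose groups did not overlap was not computed. Among the members, Bid was the 1 whose groups did not overlap. It was at 37.6 to 41.0 CPM in Th-MYCN and 23.4 to 35.1 CPM in Th-MYCN/Casp2-/- tumors, with a log2 fold change of -0.37 (-0.75 to 0.00, QLF FDR 0.741). Bcl2l11 had the largest value, -0.42 (-0.98 to 0.14, QLF FDR 0.888). The intervals differed in width. That of Bak1 (-0.40 to 0.37) did not reach a 2-fold change, whereas those of Bcl2 (-0.72 to 1.48) and Pmaip1 (-1.43 to 0.98) did.

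In the lymphomas 0 of 10 members passed by QLF in EμMyc/Casp2-/- against EμMyc tumors, where 0.141% of all tested genes did. By the likelihood ratio test and DESeq2 0 members passed, where 223 and 218 of all 14880 genes did. The genotypes overlapped for all 10 members, and the share of all tested genes that overlapped was not computed. At a raw p under 0.05, 2 of 10 members and 1269 of all genes were found. These 2 were Bax, with a log2 fold change of 0.84 (0.25 to 1.44, QLF FDR 0.335), and Bcl2l1, with 0.99 (0.03 to 1.95, QLF FDR 0.571). Both rested on EuMycC2ko215, whose Bax level of 391 CPM lay against 116 to 162 CPM in the other 6 lymphomas, and whose Bcl2l1 level of 95.7 CPM lay against 16.3 to 38.2 CPM. Without this tumor the log2 fold changes were 0.21 for Bax and -0.13 for Bcl2l1 (QLF FDR 1.00 for each). Bax passed (log2 fold change 1.13, QLF FDR 0.0467) when EuMycC2ko245, the lowest of the 3 EμMyc/Casp2-/- tumors for this gene, was left out. In that fit 170 of all 14880 genes passed, against 21 with all tumors.

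The other 8 members had log2 fold changes of -0.46 (Bcl2l11, QLF FDR 0.710) to 0.59 (Bbc3, QLF FDR 0.798) between the lymphoma genotypes. Mcl1 was at -0.17 with an interval of -0.62 to 0.29, and Bak1 at 0.10 with one of -0.31 to 0.51. Leaving out EuMycC2ko215 turned the sign of Bak1 to -0.09 and of Bad from 0.38 to -0.45, with a QLF FDR of 1.00 for each.

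**Figure D4:**
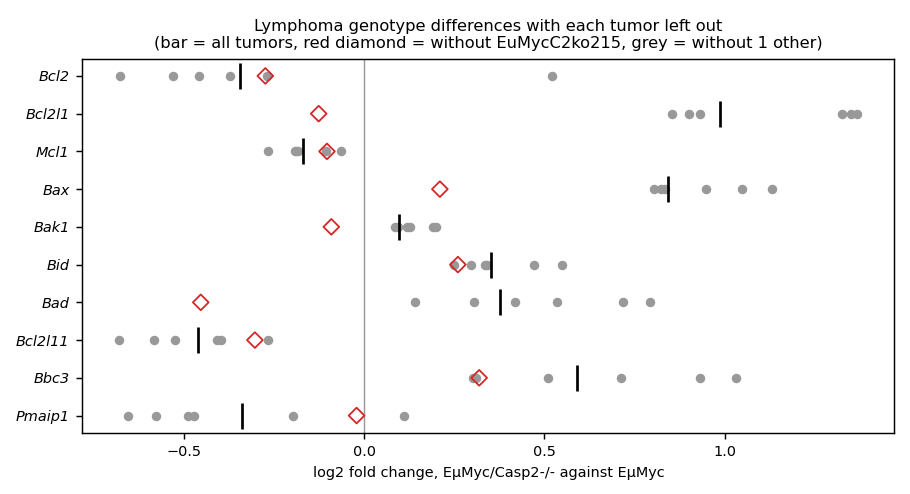
Log2 fold change of each member in EμMyc/Casp2-/- against EμMyc tumors with all tumors (black bars), without EuMycC2ko215 (red diamonds) and without each other lymphoma (grey points). The diamonds of Bcl2l1 at -0.13 and Bax at 0.21 lie away from the other points.

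The effect of genotype was compared between the tumor types by an interaction term, the log2 fold change in lymphomas minus that in neuroblastomas. By QLF 0 of 10 members passed, where 0.0538% of all tested genes did. By the likelihood ratio test and DESeq2 0 members passed, where 136 and 126 of all 14880 genes did. At a raw p under 0.05, 1 of 10 members and 1127 of all genes were found. The member was Bid, at 0.72 (0.17 to 1.28, QLF FDR 0.501), with 0.35 in lymphomas and -0.37 in neuroblastomas. Over the other settings tried its interaction ranged from 0.61 to 0.92 with an FDR of 0.236 to 0.785.

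Beyond the 10 members, the tumor types differed most in Hrk among the family genes listed. Hrk, a BH3-only gene known for neuronal death, had 5 reads in all over the 7 lymphomas, where no tumor exceeded 0.157 CPM, and 544 to 3387 reads in each neuroblastoma. It was at 114 to 209 CPM in Th-MYCN and 35.0 to 120 CPM in Th-MYCN/Casp2-/- tumors, and passed in both comparisons of tumor types (QLF FDR 6.71e-10 and 1.24e-08). The genotype difference within neuroblastomas, -1.25 on the log2 scale, did not pass (QLF FDR 0.252). Bok, a further effector, was lower in lymphomas by 11.5-fold in wild type (QLF FDR 0.000234) and 6.69-fold in Casp2-/- tumors (QLF FDR 0.00328). Bcl2l2, which encodes the pro-survival protein Bcl-w, was lower by 6.72-fold (QLF FDR 0.000205) and 11.1-fold (QLF FDR 0.000115), at 2.52 to 24.0 CPM in lymphomas and 63.6 to 119 CPM in neuroblastomas.

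The Bcl2a1 genes, pro-survival genes of blood cells, are near-identical copies. Reads that map to several places were counted in a row outside the genes, so that each of these levels is uncertain and may be too low. Bcl2a1b was higher in Casp2-/- lymphomas than in Casp2-/- neuroblastomas (log2 fold change 2.69, QLF FDR 0.00383) but not in wild type tumors (-0.05, QLF FDR 0.952), and its interaction term of 2.74 did not pass (QLF FDR 0.476). Bcl2a1a passed in the Casp2-/- comparison (3.42, QLF FDR 0.0208) at no more than 2.50 CPM in any tumor, and had 0.14 in the wild type comparison (QLF FDR 0.916) and an interaction term of 3.28 (QLF FDR 0.659). Of the 5 other pro-survival and the 4 other effector and BH3-only genes listed, Bcl2a1d, Bcl2l10 and Bik did not pass the filter on low values. Bik was at 16.0 CPM in 1 EμMyc tumor and under 1 CPM in the others. Bcl2l10 did not exceed 0.216 CPM.

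Of the 6 more distant members listed, 2 were higher and 2 lower in EμMyc than in Th-MYCN tumors, and 1 was higher and 1 lower in the Casp2-/- comparison, beside 27.4% and 32.9%, and 26.8% and 31.4%, of all tested genes. Bcl2l12 was higher by 8.53-fold (QLF FDR 2.17e-08) in wild type and 10.2-fold (QLF FDR 2.02e-08) in Casp2-/- tumors. Bcl2l13, a mitochondrial membrane protein, was lower by 1.77-fold (QLF FDR 0.000167) and 1.41-fold (QLF FDR 0.0139). Bcl2l15 was lower in wild type lymphomas, at 0.106 to 0.700 against 1.10 to 2.93 CPM (QLF FDR 0.00864), and at -0.07 on the log2 scale between Casp2-/- tumors (QLF FDR 0.944). The difference between those comparisons, 2.16, did not pass (QLF FDR 0.651).

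Downstream of the family, 5 of 15 genes of the mitochondrial pathway were higher and 2 lower in lymphomas in each comparison of tumor types, beside the 27.4% and 32.9%, and 26.8% and 31.4%, of all tested genes. Birc3, an inhibitor of apoptosis induced by NF-κB, was higher by 27.1-fold (QLF FDR 1.07e-07) and 24.2-fold (QLF FDR 2.68e-07). Vdac2, the channel to which Bak1 binds in the outer membrane, was higher by 1.79-fold in wild type tumors (QLF FDR 0.000617). In Casp2-/- tumors Vdac2 was at 280 to 312 CPM in lymphomas, within the 174 to 329 CPM of neuroblastomas. Endog, a mitochondrial nuclease, was higher by 2.03-fold in wild type tumors (QLF FDR 0.000629). Htra2, a mitochondrial protease, was higher by 2.52-fold in Casp2-/- tumors (QLF FDR 0.000762). In neither comparison of genotypes nor in the interaction did any of the 15 pass.

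Among 13 tested regulators of the family, 3 were higher and 4 lower in the wild type comparison of tumor types, and 2 were higher and 2 lower in the Casp2-/- comparison. These shares of the list are not above those of all tested genes, given before. Casp8, which cleaves Bid, was higher in lymphomas by 21.0-fold (QLF FDR 7.50e-09) and 33.4-fold (QLF FDR 5.29e-09), at 82.8 to 114 CPM against 2.31 to 6.30 CPM. Foxo1, a transcription factor that induces Bcl2l11, was higher by 9.34-fold (QLF FDR 1.65e-07) and 13.2-fold (QLF FDR 7.96e-08). Fbxw7, a ubiquitin ligase for Mcl1 and Myc, was lower by 2.89-fold (QLF FDR 0.000308) and 2.60-fold (QLF FDR 0.00172). None of the 13 passed between genotypes, Casp2 at a QLF FDR of 0.0536 in lymphomas and 0.327 in neuroblastomas included. Trp73 did not pass the filter on low values.

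**Figure D5:**
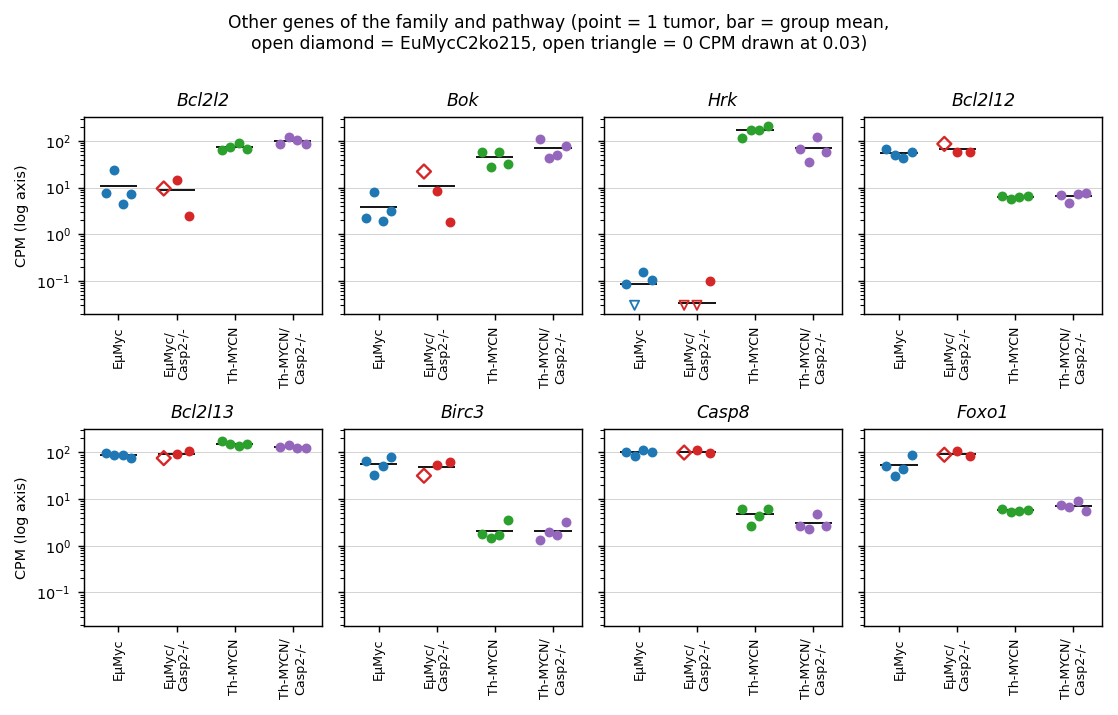
CPM (log axis) of 8 other genes of the family and pathway in each tumor by group, where a point is 1 tumor, a black bar the group mean, the open diamond EuMycC2ko215 and an open triangle a value of 0, drawn at 0.03. Hrk, Bok, Bcl2l2 and Bcl2l13 are higher in neuroblastomas, and Bcl2l12, Birc3, Casp8 and Foxo1 in lymphomas.

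Within groups the members varied together in part. After the group means of log2 CPM were subtracted, Bax and Bad had a Pearson r of 0.83 over the 15 tumors, Bad and Bbc3 of 0.82, and Bcl2l1 and Bax of 0.81. Without EuMycC2ko215 these were 0.71, 0.85 and 0.14 over 14 tumors, so that the last rested on this tumor. Mcl1 and Bak1 had the most negative value, -0.71, and -0.76 without it. The tumors share libraries and depth in all of these values, which are given as descriptions with no test. Bax, Bad, Bbc3 and Bcl2l1 had a GC content of 55.88 to 65.21%, and the other members of 42.13 to 57.06%. The difference between genes of high and low GC content also varied between tumors, with 0.83 in EuMycC2ko215, 0.61 in MYCNC2ko180 and -0.415 in EuMyc829. No r was computed with corrected offsets, and the part of GC content in these values was not tested.

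For each member, the 2 genes with the highest r by the same measure were picked out of all tested genes. The largest values of so wide a search over 15 tumors can be high by chance, and they were not tested. The tested genes most like each member were Gatad1 (r = 0.95) and Clcc1 (0.93) for Mcl1, Phf21a (0.94) and Evi5l (0.91) for Bcl2, and Lrrc16b (0.95) and Lrrc10b (0.95) for Bcl2l1. They were Osbpl10 (0.96) and 1110017D15Rik (0.96) for Bax, and Tcte1 (0.95) and Shroom1 (0.93) for Bak1. For the BH3-only genes they were Crabp2 (0.90) and Ptprn (0.88) for Bid, Slc46a1 (0.97) and Drap1 (0.97) for Bad, and Dll1 (0.88) and Ace (0.82) for Bcl2l11. Bbc3 had Nolc1 (0.97) and Sf3b2 (0.96), and Pmaip1 had Retsat (0.90) and Muc1 (0.90). Without EuMycC2ko215 the values for Bax fell to 0.81 and 0.70 and that of Lrrc10b for Bcl2l1 to 0.79, and the others moved to between 0.80 and 0.97. The tumors that remained had also been used to pick the genes, so these values are no separate check.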

How the data were processed

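RNA of 15 tumors was sequenced, 1 library per mouse. After poly(A) selection the authors read 50 bases from 1 end of each fragment, used STAR for alignment against mm10/GRCm38 and deposited raw gene counts on either strand and on each strand. Versions and the gene annotation are not given in the sources used here. The second strand column was used, as in the study. It held 49.6 to 50.2% of the reads on either strand, as in an unstranded library, so reads of overlapping antisense genes cannot be told apart. Rows that name no gene (66.4 to 71.8% of that column) were left out. A further EμMyc/Casp2-/- tumor of the study was not analysed here.

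In R 4.3.3, the 14880 genes that exceeded 1 CPM in 3 tumors or more were scaled by TMM and fitted with edgeR 4.0.16 as 4 group means over all tumors. The test was the quasi-likelihood F test (QLF), with Benjamini-Hochberg adjustment over all genes tested and a threshold of 0.05. Fold changes are on the log2 scale, with 95% intervals. On simulated counts with 200 of 14880 genes changed 4-fold, QLF recovered 72.5% with 7.05% of calls false in the design of the neuroblastomas. In that of the lymphomas it recovered 65.5% with 2.96% false. These counts were drawn around the mean of each tumor type, with no tumor set apart as EuMycC2ko215 was. Smaller changes, such as those of the members between genotypes, were not simulated. The likelihood ratio test, behind the study's own tables, had 16.3% and 12.4% of calls false and was an alternative, with DESeq2 1.42.0, RLE scaling, no filter, counts on either strand, only the groups compared, onset as a covariate in the neuroblastomas, each tumor left out, and gene lengths. Offsets corrected for GC content and length were added after the data were seen. CPM is TMM-scaled, and correlations used a prior count of 2. The floor of 3 reads covers counting error only. Within groups, tumor pairs differed by a chi-square of 16.8 to 76.9 per degree of freedom, so each was counted as a library of its own. Lengths, positions and GC content came from the GENCODE vM21 annotation of GRCm38, and promoters from RefSeq (GRCm38.p6). GC content and length were found for 90.3% of the tested genes.

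The members, the gene lists and the choice of QLF were made with earlier results of these data known. Named genes were all members, those that passed and were among the 3 smallest FDR of their list, family genes under the filter, and the 2 genes most like each member. The values of 1 gene that this rule names are not reported here.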

Additional observations from a re-analysis of the deposited data

Results flagged for a closer look

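In groups of 4 tumors, a tumor was marked where its gap to the nearest tumor, divided by the range of the group, was above Dixon's 95% critical value, which chance alone passes in about 1 of 20 groups. Of 30 combinations of member and group, 3 were marked. Bcl2l1 was at 38.2 CPM in EuMyc835, above the 16.3 to 19.5 CPM of the other EμMyc tumors. Bax was at 93.0 CPM in MYCN175, below the 111 to 114 CPM of the other Th-MYCN tumors. Bcl2l11 was at 21.7 CPM in MYCNC2ko144, below the 38.3 to 40.0 CPM of the other Th-MYCN/Casp2-/- tumors. The group of 3 EμMyc/Casp2-/- tumors was not examined by this measure.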

How the results depend on the processing

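Of 80 counts of passing members recomputed under other settings, 79 stayed within 1.5 times the value reported. The exception was EμMyc/Casp2-/- against EμMyc, where leaving out each tumor gave 0 to 1 members, the 1 being Bax without EuMycC2ko245 (QLF FDR 0.0467). Of 800 log2 fold changes of single members, 786 kept their side of the threshold, 8 gained and 6 lost a call, and 0 passing values changed sign. Both totals include the comparisons of genotypes and the interaction, where 0 members and 0.0336 to 0.141% of all genes passed. Staying at 0 there was near fixed in advance. A count within 1.5 times can also hide a change in which members pass, as without EuMycC2ko215. For 42 values that did not pass, the sign changed. For 40 of 50 pairs of gene and comparison the side of the threshold never changed. Besides those given with the genes, Bax in Casp2-/- tumors was lost with only the groups compared (0.92, FDR 0.0503), and Bcl2l1 there was gained with offsets corrected for GC content and length (-0.95, FDR 0.0460), as was Bcl2 between wild type tumors (1.41, FDR 0.0275). The causes were not tested. Over all genes, EμMyc/Casp2-/- against EμMyc had 21 passing genes, 223 by the likelihood ratio test, 218 by DESeq2, 1 with only the groups compared and 10 to 170 with each tumor left out. Th-MYCN/Casp2-/- against Th-MYCN had 5, 133 by the likelihood ratio test, 141 by DESeq2 and 2 to 27 with each tumor left out. No paired analysis was possible because the labels give no replicate numbers shared between groups. With 3 to 4 tumors a group, Mcl1, Bak1 and Bid were the members whose 95% intervals stayed within a 2-fold change in both comparisons of genotypes.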
